A study of Mus musculus with 9 samples.

Results

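Activated mouse CD4+ T cells that had been cultured with 5 μM acacetin were compared with the same kind of cells cultured without it. Acacetin is a flavone, a plant flavonoid. The libraries were taken by their labels, which name the concentration, and they number 6 of the 9 in the series: 3 at 5 μM acacetin and 3 at 0 μM, each set labelled as biological replicates. The other 3 libraries were from cells at 10 μM. Every culture held wild-type naive CD4+ T cells from the spleen and lymph nodes of mice, which the methods describe as male BALB/c animals without disease, and every culture was activated with anti-CD3 and anti-CD28 antibodies bound to the plate at 5 μg/ml each. RNA was taken on day 3. The labels and the methods name different culture media. The source animals of each replicate are not given, so p values rest on the variation among these cultures, which may be partly technical.

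A naive CD4+ T cell that meets its antigen together with costimulation leaves quiescence within hours. Signals from the T cell receptor switch on immediate early genes such as the NR4A, EGR and AP-1 factors, the cell gives up lymph node homing receptors, grows, raises mitochondrial respiration, glycolysis and the synthesis of sterols and nucleotides, and divides. Cytokines then set which effector genes are kept. The comparison asks which of these programs differed in cells that had been activated in the presence of a low dose of the flavone.

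The 5 μM libraries held 19665037 to 24410754 estimated counts and the 0 μM libraries 19972706 to 23873773. All 10 listed markers of CD4+ T cells exceeded 10 CPM (counts scaled to library size) in each of the 6 libraries, with 723, 713 and 725 CPM at 5 μM, against 781, 771 and 764 CPM at 0 μM for Cd4 itself. Markers of other cells were mostly scarce. Of the 10 B cell markers, 9 were under 1 CPM in all 6 libraries, while Ighm had 161, 154 and 155 CPM at 5 μM, against 141, 140.4 and 148 CPM at 0 μM and was called higher (0.13, adjusted p = 0.0042). Pecam1 and Bst2, of the endothelial and dendritic cell lists, had log2 fold changes of 0.03 and -0.05 and were not called. Of the 12 macrophage and monocyte markers, 9 were under 1 CPM in all 6 libraries, among them Csf1r and C1qa, yet their summed level was 7.63 to 8.27 CPM at 5 μM, against 2.41 to 4.18 CPM at 0 μM. The part of such cells in the results was not tested. Liver transcripts summed to 32.3 CPM in 5 μM replicate 2, against 2.99 to 3.25 CPM in the other 5 libraries. The call of Alb, the albumin gene, as higher at 5 μM (log2 fold change 2.29, adjusted p = 0.012) rested on that library and was lost without it (0.11, adjusted p = 0.84). A residue of 18S ribosomal RNA was counted in each library, at 1389, 1349 and 1419.9 CPM at 5 μM, against 1197, 2953 and 3016 CPM at 0 μM, so that 0 μM replicate 1 sat with the 5 μM libraries. In bulk RNA, fewer cells of a type and less RNA per cell cannot be told apart.

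Acacetin at 5 μM shifted many genes by a little. Of 12175 genes tested, 4029 (33.1%) passed an adjusted p of 0.05 in edgeR's quasi-likelihood test, and such genes are called changed here. Of them, 1982 were higher (16.3% of those tested) and 2047 lower (16.8%) at 5 μM. The size of the change among called genes was 0.22 on the log2 scale at the median. A fold of 1.5 was also exceeded by 409 called genes (3.36%), 197 of them higher (1.62%) and 212 lower (1.74%), and 137 exceeded 2-fold. The 3 libraries of one concentration did not overlap those of the other for 46.4% of all tested genes. The median log2 fold change over all tested genes was 0.00. Replicates were close, with a common coefficient of variation of 3.65%. A share of called members near 33.1% in a gene list is therefore that of the genes at large. Abundant genes are called at smaller changes than scarce ones. The SE was 0.03 for the abundant Atp5b and 0.27 for the scarce histone gene H3c13. Lists were not matched to genes of like level, so how far level sets their shares was not tested.

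**Figure D1:**
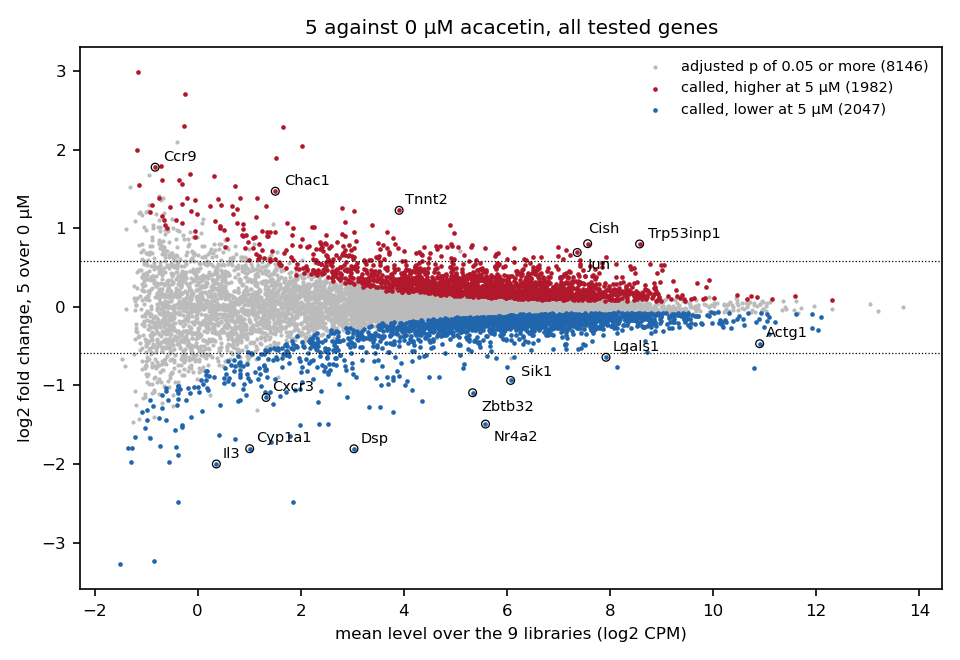
Each point is 1 of the 12175 tested genes, by its mean level over the 9 libraries (log2 CPM, x axis) and its log2 fold change at 5 over 0 μM acacetin (y axis), with 1982 genes called higher in red, 2047 called lower in blue and dotted lines at a fold of 1.5. Most called genes lie between the dotted lines, and Nr4a2, at a log2 fold change of -1.49, stands apart from genes of its level.

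The 12 lowest and 12 highest fold changes were picked only among genes whose groups did not overlap. For those genes the lack of overlap is a condition of the choice and no result. The smallest p value of the comparison belonged to Nr4a2, which encodes an orphan nuclear receptor induced by the T cell receptor. Its level was 32.2, 32.00 and 31.9 CPM at 5 μM, against 92.3, 91.5 and 86.9 CPM at 0 μM. The treated cultures were nearly equal to each other and 2.81-fold lower than the untreated ones (log2 fold change -1.49, SE 0.04, adjusted p = 7.6e-14). Dsp, the gene of the desmosomal protein desmoplakin, fell furthest among called genes whose mean log2 CPM reached 3. It had 4.25, 5.49 and 4.39 CPM at 5 μM, against 16.4, 17.6 and 15.8 CPM at 0 μM, and the groups did not overlap (log2 fold change -1.81, adjusted p = 3.1e-09). Cadm1, the gene of an adhesion molecule of the immunoglobulin superfamily, averaged 9.59 ± 0.201 CPM at 5 μM and 24.3 ± 1.66 CPM at 0 μM (SD, n = 3 each), again without overlap (-1.34 on the log2 scale, adjusted p = 1.5e-09). Ptpn5 encodes a tyrosine phosphatase known from neurons, where it acts on MAP kinases. It stood at 6.54, 7.93 and 7.82 CPM at 5 μM, against 17.2, 18.1 and 18.9 CPM at 0 μM, and each 5 μM library was below each 0 μM library.

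Secreted and effector products were among the other large falls. Ccl3 and Ccl4 encode chemokines that activated T cells release to draw in other leukocytes. Ccl3 had 16.9, 12.97 and 15.7 CPM at 5 μM, against 33.7, 34.7 and 35.8 CPM at 0 μM and Ccl4 had 7.73, 9.23 and 6.76 CPM at 5 μM, against 20.2, 18.6 and 18.9 CPM at 0 μM. The fall was 2.301-fold and 2.41-fold, though reads of these close paralogs may have been split between them. Nkg7, which takes part in the release of cytotoxic granules, had 8.44, 9.51 and 8.93 CPM at 5 μM, against 18.7, 17.3 and 18.00 CPM at 0 μM, a 2.001-fold fall. Zbtb32, a transcriptional repressor of activated lymphocytes, had 31.7, 31.8 and 28.8 CPM at 5 μM, against 66.6, 64.2 and 66.8 CPM at 0 μM and fell 2.14-fold (adjusted p = 4.9e-11). Sik1, a salt-inducible kinase gene that cAMP signaling switches on, had 49.8, 53.5 and 52.05 CPM at 5 μM, against 101, 99.8 and 97.2 CPM at 0 μM. Its fall of 1.92-fold was larger than the spread in either group (adjusted p = 5.0e-11). The remaining 3 of the 12 lowest were Mlkl, the executor of necroptosis (-0.93 on the log2 scale), the galectin gene Lgals7 (-0.999) and Sectm1a (-0.94).

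The highest fold changes at this level of expression were of a mixed kind. Like the lowest, they were picked only where the groups did not overlap. Tnnt2, the gene of cardiac troponin T, had 17.5, 15.4 and 15.1 CPM at 5 μM, against 5.93, 6.72 and 7.73 CPM at 0 μM. It was 2.34-fold higher (log2 fold change 1.23, SE 0.10, adjusted p = 4.4e-08). Hpgds makes prostaglandin D2, a lipid mediator of Th2 and mast cells, and its transcript stood at 8.73, 8.905 and 9.13 CPM at 5 μM, against 3.97, 3.48 and 4.01 CPM at 0 μM. That is a 2.33-fold rise with no overlap (adjusted p = 9.5e-08). Pik3ip1 encodes a membrane protein that restrains PI3 kinase and is high in resting T cells. It had 36.3, 35.5 and 29.6 CPM at 5 μM, against 17.95, 16.8 and 18.3 CPM at 0 μM, with every treated library above every untreated one (0.93 on the log2 scale, adjusted p = 1.7e-08). Cish, a STAT5-induced feedback inhibitor of cytokine signaling, had 193, 200.2 and 202 CPM at 5 μM, against 115, 114 and 113 CPM at 0 μM. Trp53inp1, a p53 target that acts in autophagy and stress responses, had 423, 406 and 415 CPM at 5 μM, against 238, 236 and 241 CPM at 0 μM. The log2 fold changes were 0.80 and 0.80 (adjusted p = 2.5e-12 and 4.9e-11), without overlap. The others of the 12 highest were Hmcn2 (1.04), the axon guidance receptor gene Robo3 (1.04), the transcription factor genes Zfp750 (0.95) and Casz1 (0.87), the protease gene Adam19 (0.81) and both common metallothioneins, described next.

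**Figure D2:**
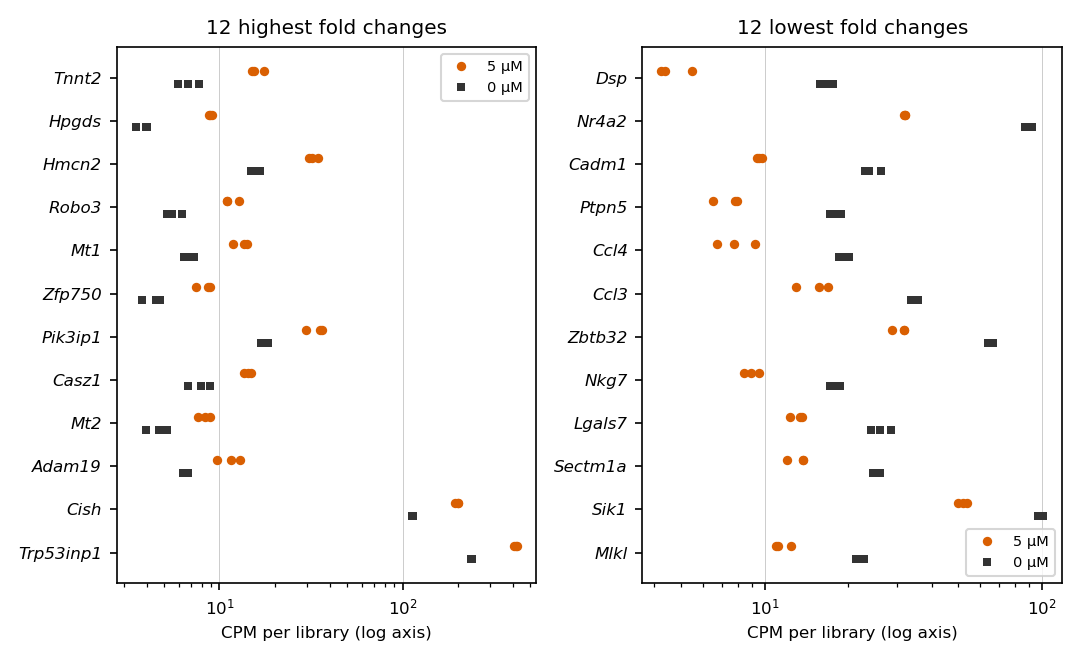
Levels in each library (CPM, log axis) of the 12 highest (left) and the 12 lowest (right) fold changes among called genes over 1.5-fold whose mean log2 CPM reached 3 and whose groups did not overlap, with libraries at 5 μM as orange circles and those at 0 μM as dark squares (n = 3 each). For Nr4a2 the circles lie at 31.9 to 32.2 CPM and the squares at 86.9 to 92.3 CPM.

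Metallothioneins are small cysteine-rich proteins that bind zinc and copper, and their genes are driven by the metal-sensing factor MTF1. Mt1 had 14.2, 13.5 and 11.9 CPM at 5 μM, against 6.74, 6.37 and 7.27 CPM at 0 μM, and Mt2 had 8.92, 8.34 and 7.62 CPM at 5 μM, against 3.97, 4.68 and 5.16 CPM at 0 μM. The rises were 1.94-fold and 1.79-fold (adjusted p = 1.0e-06 and 1.6e-05), with the caveat that the 2 genes are alike in sequence. Of 16 tested genes for metallothioneins and zinc transport, 4 were higher and 1 was lower (median 0.07). That is 31.25% called, near the 33.1% of all tested genes. The zinc importers Slc39a3 (0.23) and Slc39a14 (0.20) rose slightly and Slc39a4 fell (-0.25). The zinc exporter Slc30a1, another MTF1 target, had 16.8, 16.3 and 18.1 CPM at 5 μM, against 15.7, 16.4 and 16.4 CPM at 0 μM, with overlapping groups. Promoter windows from RefSeq (GRCm38.p6, 250 bases before to 50 after the start) were found for 5 of 8 called genes (the metallothionein, zinc and NR4A members and Sik1). They are shown because metal and T cell receptor signals are known to act on such promoters. Capitals mark the core of the metal response element, TGCGCNC or TGCACNC, on either strand, and in Mt2 also the AP-1 motif TGANTCA.
Mt1, chr8:94178839-94179138, plus strand: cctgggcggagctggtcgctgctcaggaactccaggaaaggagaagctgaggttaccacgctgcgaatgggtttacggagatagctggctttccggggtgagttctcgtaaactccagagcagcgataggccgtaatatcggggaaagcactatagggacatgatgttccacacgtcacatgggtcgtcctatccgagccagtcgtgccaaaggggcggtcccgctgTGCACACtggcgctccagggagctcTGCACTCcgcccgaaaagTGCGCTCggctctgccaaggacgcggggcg
Mt2, chr8:94172368-94172667, plus strand: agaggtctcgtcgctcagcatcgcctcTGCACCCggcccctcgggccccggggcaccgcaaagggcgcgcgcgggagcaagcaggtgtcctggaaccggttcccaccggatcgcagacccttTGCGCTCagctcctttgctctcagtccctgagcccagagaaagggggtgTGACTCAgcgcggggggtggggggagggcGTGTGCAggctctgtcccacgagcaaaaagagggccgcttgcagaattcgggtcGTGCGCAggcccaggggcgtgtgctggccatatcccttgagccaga
Slc39a3, chr10:81037266-81037565, minus strand: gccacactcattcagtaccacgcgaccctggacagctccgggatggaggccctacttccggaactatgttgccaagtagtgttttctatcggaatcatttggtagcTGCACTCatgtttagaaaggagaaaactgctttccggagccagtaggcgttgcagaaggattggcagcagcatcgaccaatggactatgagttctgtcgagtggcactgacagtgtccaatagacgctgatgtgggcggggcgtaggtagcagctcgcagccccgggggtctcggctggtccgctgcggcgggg
Nr4a1, chr15:101266596-101266895, plus strand: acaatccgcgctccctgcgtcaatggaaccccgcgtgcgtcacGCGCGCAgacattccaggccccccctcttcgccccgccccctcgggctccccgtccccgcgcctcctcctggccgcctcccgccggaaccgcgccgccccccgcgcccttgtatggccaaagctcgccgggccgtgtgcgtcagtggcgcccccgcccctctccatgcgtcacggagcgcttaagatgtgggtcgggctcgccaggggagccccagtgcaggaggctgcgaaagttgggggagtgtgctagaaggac
Nr4a2, chr2:57123954-57124253, minus strand: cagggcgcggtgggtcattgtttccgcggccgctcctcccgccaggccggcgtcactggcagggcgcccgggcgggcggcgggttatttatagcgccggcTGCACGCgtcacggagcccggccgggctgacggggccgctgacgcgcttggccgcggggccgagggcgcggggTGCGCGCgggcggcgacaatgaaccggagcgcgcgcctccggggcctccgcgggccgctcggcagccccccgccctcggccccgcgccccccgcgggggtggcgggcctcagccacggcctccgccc
The metal response core occurred 3 times in the Mt1 window and 4 times in the Mt2 window, against 1 or 2 times in those of Slc39a3, Nr4a1 and Nr4a2. It is a short motif, present in 25.7% of 32851 such windows. The AP-1 motif, present in 7.81% of windows, occurred once in Mt2. The full form of the cAMP response element, TGACGTCA, present in 1.79%, was in none of these 5. Shorter or variant forms of that element were not searched for, so the windows may hold them. A match is a description of the letters only.

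Among the factors that T cell receptor signals induce within hours, some fell, some rose and others were not called. Nr4a1 had 146, 146 and 143 CPM at 5 μM, against 209.7, 209.8 and 208 CPM at 0 μM, a fall of 1.44-fold without overlap, next to the larger fall of its relative Nr4a2. The third member, Nr4a3, had 146, 150.4 and 147 CPM at 5 μM, against 164, 154 and 153 CPM at 0 μM and was not called (adjusted p = 0.07). Of 11 EGR and NFAT genes with their feedback partners, 3 were higher and 4 lower (median -0.08), none past 1.5-fold, with Egr3 at -0.16 and Nfatc2 at -0.16 on the log2 scale. Egr1 and Egr2 were not called (0.10 and -0.10). Within AP-1 the partners diverged. Jun had 175, 176 and 169.8 CPM at 5 μM, against 107, 109.8 and 106 CPM at 0 μM, whereas Junb had 363, 355 and 346 CPM at 5 μM, against 480.3, 478 and 478 CPM at 0 μM. The groups overlapped for neither gene (log2 fold changes 0.69 and -0.43, adjusted p = 2.5e-11 and 1.7e-09). Batf, which pairs with these factors in effector T cells, had a log2 fold change of 0.01, with overlapping groups (adjusted p = 0.94). Over the AP-1 list 3 of 12 tested members were higher and 4 lower.

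Several negative feedback genes of MAP kinase and NF-kB signaling rose. Of 14 dual-specificity phosphatases, which switch MAP kinases off, 5 were higher and 2 lower. Dusp1 had 81.2, 78.4 and 85.8 CPM at 5 μM, against 55.4, 57.3 and 57.2 CPM at 0 μM, and Dusp8 had 5.72, 6.71 and 5.497 CPM at 5 μM, against 3.07, 3.83 and 3.25 CPM at 0 μM. Both were separate between the groups (log2 fold changes 0.53 and 0.83). Of 19 NF-kB subunits and feedback genes, 12 were higher and 2 lower (median 0.17). Nfkbia, the gene of the inhibitor IκBα, had 542, 542 and 538 CPM at 5 μM, against 361, 384 and 376 CPM at 0 μM. Tnfaip3, which encodes the deubiquitinase A20, had 351, 351 and 359 CPM at 5 μM, against 259.6, 256 and 248 CPM at 0 μM, and the atypical inhibitor gene Nfkbiz rose by a similar amount (0.56 on the log2 scale). The subunits were divided, with Rel (-0.28) and Nfkb1 (-0.12) lower and Rela (0.14), Relb (0.17) and Nfkb2 (0.20) higher. Of 27 genes of the receptor complex and its proximal kinases and adaptors, 9 were higher and 4 lower, none by 1.5-fold, with the adaptor gene Sla (0.16) higher and Ptpn22 (-0.20), an inhibitory phosphatase gene, falling most. Among salt-inducible kinases and CREB regulators, Sik1 stood alone in its size, since Sik2 (0.23) and the cAMP phosphodiesterase gene Pde3b (0.35) were higher and Sik3 (-0.14) lower by less.

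Transcripts that naive T cells carry and activated cells give up were higher at 5 μM. Of the 20 listed genes for the naive state and lymph node homing, all tested, 18 were higher and 2 lower (of all tested genes 16.3% were higher and 16.8% lower), with a median log2 fold change of 0.32. S1pr1, the receptor by which T cells leave lymph nodes, had 12.9, 14.3 and 13.7 CPM at 5 μM, against 8.05, 9.91 and 7.78 CPM at 0 μM. Satb1, which encodes a chromatin-folding protein, had 559, 562 and 552 CPM at 5 μM, against 386, 383 and 385 CPM at 0 μM, and Ccr7, the chemokine receptor for entry into lymph nodes, had 951, 949 and 938 CPM at 5 μM, against 742, 751 and 748 CPM at 0 μM. Rises of 1.599-fold, 1.45-fold and 1.27-fold were larger than the spread in each case. The interleukin 7 receptor gene Il7r (0.53), the quiescence factor gene Klf2 (0.38) and the T cell identity factors Tcf7 (0.22) and Lef1 (0.25) moved the same way. Ccr9 had the largest fold change of the list (1.78) at a very low level, 1.15, 0.529 and 0.303 CPM at 5 μM and 0.151, 0.149 and 0.254 CPM at 0 μM. Id3, an inhibitor of E proteins that naive and memory cells hold, went against the list, at 24.4, 23.9 and 23.7 CPM at 5 μM, against 33.7, 35.6 and 38.5 CPM at 0 μM, as did Dapl1 by less (-0.19, adjusted p = 0.067 without 5 μM replicate 3 and 0.063 without 0 μM replicate 1). Of 8 GIMAP GTPases, which support the survival of resting lymphocytes, 5 were higher, led by Gimap3 (0.54), a gene with a close paralog, and Gimap5 was lower (-0.14).

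Lineage genes were divided. Of 22 tested T helper lineage regulators 8 were higher and 7 lower (median 0.27), and of 8 effector chemokine receptors 4 were higher and 3 lower. T-bet, the lineage factor of Th1 cells, is encoded by Tbx21, which had 20.3, 18.3 and 17.4 CPM at 5 μM, against 29.9, 29.1 and 27.6 CPM at 0 μM. Stat4, the factor that relays interleukin 12, had 33.9, 36.4 and 32.8 CPM at 5 μM, against 52.3, 50.1 and 50.3 CPM at 0 μM. The groups did not overlap for either (log2 fold changes -0.63 and -0.56, adjusted p = 6.8e-07 and 6.2e-07). The receptor genes that work with them fell too, with Il12rb2 at -0.77, Il18rap at -0.66 (adjusted p = 0.057 without 5 μM replicate 2) and Il12rb1 at -0.31. The Th1 chemokine receptor Cxcr3 had 1.72, 1.71 and 1.87 CPM at 5 μM, against 3.52, 3.83 and 4.39 CPM at 0 μM, a 2.23-fold fall. Interferon gamma itself (Ifng) was low and variable, at 3.196, 2.196 and 1.92 CPM at 5 μM, against 2.77, 3.09 and 3.25 CPM at 0 μM, and was not called (adjusted p = 0.27). The Th2 factor Gata3 was higher, at 53.8, 56.1 and 54.4 CPM at 5 μM, against 39.1, 41.2 and 37.6 CPM at 0 μM (0.48 on the log2 scale), and so was Ccr4, a receptor of Th2 and regulatory cells, at 38.4, 38.9 and 39.6 CPM at 5 μM, against 22.5, 21.95 and 24.5 CPM at 0 μM. Among other lineage genes, Eomes (0.81), the Ikaros family genes Ikzf2 (0.76) and Ikzf4 (0.76) and Rora (0.51) rose. Foxp3, the factor of regulatory T cells, had 7.78, 8.21 and 8.02 CPM at 5 μM, against 5.73, 6.67 and 7.65 CPM at 0 μM and was not called (adjusted p = 0.10). The cytokine genes Il17a, Il17f, Il4 and Il5 were below the filter on low counts and were not tested.

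**Figure D3:**
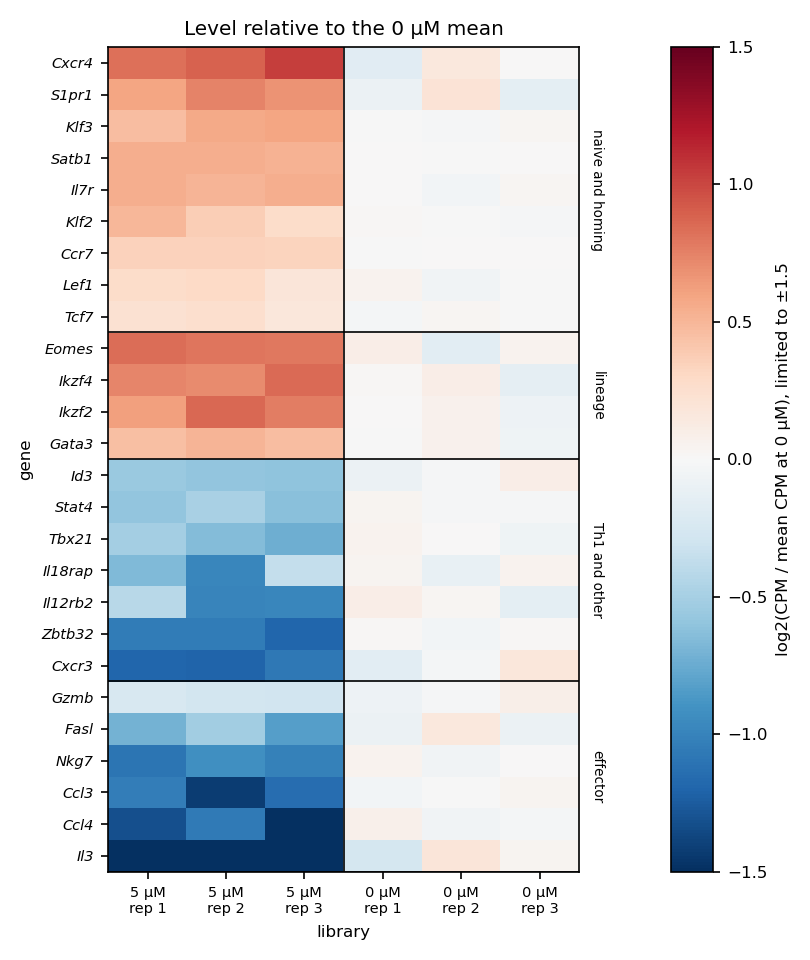
Levels of 26 genes (rows) in each library, 5 μM before 0 μM (columns, n = 3 each), as log2 of the CPM over the mean CPM at 0 μM, red above and blue below, limited to 1.5 either way. Homing genes such as S1pr1 (0.68) and lineage genes such as Eomes (0.81) are red in all 3 libraries at 5 μM, and Tbx21 (-0.63), Cxcr3 (-1.15) and Ccl3 (-1.20) are blue.

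Cytokine genes did not move together. Of 15 tested, 5 were higher and 3 lower. Il2, the T cell growth factor, had 90.8, 91.1 and 94.1 CPM at 5 μM, against 66.4, 63.8 and 63.6 CPM at 0 μM, a 1.42-fold rise without overlap (adjusted p = 5.4e-09). Ltb (0.39), Lif (0.39) and Tnf (0.30) were also higher. Il3, a hematopoietic growth factor made by activated T cells, fell to 0.668, 0.447 and 0.706 CPM at 5 μM, against 2.01, 2.74 and 2.49 CPM at 0 μM. The groups did not overlap, though the transcript was scarce in both (log2 fold change -2.001, adjusted p = 5.6e-05). Lymphotoxin alpha (Lta, -0.29) and Csf1 (-0.30) fell by less. Xcl1, the chemokine that attracts cross-presenting dendritic cells, was the sole chemokine gene of 8 tested to rise (4.53, 5.04 and 4.89 CPM at 5 μM, against 2.41, 2.74 and 2.79 CPM at 0 μM), opposite to Ccl3 and Ccl4. Of those 8 genes 37.5% were called, near the 33.1% of all tested genes. Of 19 cytokine receptor genes, 8 were higher, among them the TGF-β receptor gene Tgfbr1 (0.55), and 4 were lower.

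Beside Cish, several genes in the reach of interleukin 2 and STAT5 were higher. Socs2 had 13.5, 14.8 and 14.5 CPM at 5 μM, against 7.75, 9.81 and 7.94 CPM at 0 μM (0.75 on the log2 scale), and the kinase gene Pim1 rose as well (0.54). Stat5a had 299, 303 and 307 CPM at 5 μM, against 231, 239 and 228 CPM at 0 μM, and Il2ra, the high-affinity receptor chain CD25, had 486, 496 and 490.1 CPM at 5 μM, against 420.2, 412 and 411 CPM at 0 μM. None of these 3 genes with library values overlapped between the groups. Pim3, of the same family as Pim1, was lower (-0.24), so that 5 of 11 CIS, SOCS and PIM genes rose and 2 fell. Of 11 JAK and STAT genes, 5 rose and 3 fell, with Stat3 (-0.11) a little lower beside the larger fall of Stat4.

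Cytotoxic and inhibitory genes were mostly lower where they changed. Of 12 cytotoxic effector genes tested, 5 were lower and 0 higher (median -0.34). That is 41.7% called, against 33.1% of all tested genes called in either direction and 16.8% called lower. Besides Nkg7 these were Fasl (-0.67), the gene of the Fas ligand, Crtam (-0.58), Tnfsf10 (-0.41), which encodes TRAIL, and Gzmb. Granzyme B (Gzmb) had 41.6, 40.4 and 40.1 CPM at 5 μM, against 46.6, 48.4 and 52.2 CPM at 0 μM, and perforin (Prf1) was not called. The 8 listed NK cell markers, 6 of them under 1 CPM in all 6 libraries, summed to 8.93 to 9.64 CPM at 5 μM and 9.17 to 9.61 CPM at 0 μM. Within that sum Klrk1, the gene of the receptor NKG2D, fell, with 2.19, 2.36 and 2.32 CPM at 5 μM, against 5.08, 5.48 and 4.61 CPM at 0 μM (adjusted p = 1.0e-04), and Eomes rose (0.81). Their part in the cytotoxic list was not tested. Of 14 inhibitory receptors and related genes, 5 were lower and 2 higher. Pdcd1, the gene of PD-1, had 46.3, 49.9 and 47.9 CPM at 5 μM, against 71.1, 68.7 and 72.6 CPM at 0 μM, and Tigit had 16.4, 15.9 and 15.8 CPM at 5 μM, against 26.9, 25.2 and 25.3 CPM at 0 μM. Neither overlapped between the groups, in contrast to Lag3 and Ctla4, which had 0.04 and -0.01 on the log2 scale and were not called. Lilrb4a went the other way, at 4.96, 5.81 and 4.34 CPM at 5 μM, against 2.46, 2.54 and 2.54 CPM at 0 μM. Activation markers were split as well. The early marker Cd69 had 265, 273 and 265 CPM at 5 μM, against 179, 167 and 174 CPM at 0 μM, a rise of 1.55-fold, and Cd83 (0.46) and Icos (0.24) were higher, whereas Ly6a, which encodes Sca-1, fell to 9.78, 10.1 and 11.9 CPM at 5 μM, against 18.5, 20.1 and 20.2 CPM at 0 μM. Cd44 had 187, 185 and 187 CPM at 5 μM, against 193, 188 and 187 CPM at 0 μM and was not called (adjusted p = 0.63). Of 17 TNF family ligands and receptors, 9 were higher, among them Cd70 (0.82), Tnfrsf26 (0.77), Tnfsf9 (0.73) and Tnfsf4 (0.65), and 3 were lower, among them Cd40lg (-0.28).

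Target genes of p53, the tumor suppressor that answers DNA damage and other stress, were mostly higher. Of 34 tested, 28 were higher and 2 lower, with a median log2 fold change of 0.38. Plk2, a kinase gene, had 73.4, 67.8 and 72.4 CPM at 5 μM, against 42.3, 44.1 and 40.7 CPM at 0 μM. Bbc3, the gene of the death-inducing BH3-only protein PUMA, had 156, 156 and 142 CPM at 5 μM, against 95.9, 91.9 and 100.2 CPM at 0 μM, and Phlda3, an inhibitor of Akt, had 136, 133 and 131 CPM at 5 μM, against 84.9, 83.2 and 86.8 CPM at 0 μM. All 3 genes rose by 1.57-fold to 1.68-fold, with no overlap. Cdkn1a, which encodes the cell cycle inhibitor p21, had 342, 344 and 339 CPM at 5 μM, against 237, 243 and 238 CPM at 0 μM (log2 fold change 0.52, adjusted p = 9.2e-11). Mdm2, the p53 ubiquitin ligase (0.31), Bax (0.29) and Fas (0.32) rose by less. Gpx1 (-0.22), a peroxidase gene, and Tigar (-0.20, adjusted p = 0.036), a regulator of glycolysis, were lower, and the call of Tigar was lost with DESeq2 (adjusted p = 0.13) and without any single library. The p27 gene Cdkn1b, another inhibitor of cyclin-dependent kinases and no p53 target, was also higher, at 90.1, 89.3 and 91.9 CPM at 5 μM, against 66.8, 68.1 and 71.9 CPM at 0 μM. Of 12 tested BCL2 family genes outside the p53 list, 4 were higher and 4 lower (median -0.10). Of the survival genes, Bcl2 (0.53) and Bcl2l1 (0.31) rose and Bcl2a1d (-0.38), which has close paralogs, fell. The proapoptotic Bok (-1.13) and Bak1 (-0.25) fell.

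The integrated stress response, in which Atf4 and its partners answer amino acid shortage, mitochondrial stress or misfolded protein, was divided. Of 26 tested genes 9 were higher and 6 lower. Atf5, a transcription factor gene of the response, had 26.5, 27.6 and 24.8 CPM at 5 μM, against 15.5, 15.7 and 16.2 CPM at 0 μM, Ddit3, the gene of CHOP, had 65.6, 68.7 and 63.9 CPM at 5 μM, against 45.6, 41.7 and 42.9 CPM at 0 μM, and the pseudokinase gene Trib3 had 16.6, 13.9 and 13.8 CPM at 5 μM, against 7.34, 9.06 and 9.001 CPM at 0 μM. Each was at least 1.52-fold higher, without overlap. Chac1, a glutathione-degrading enzyme, had the largest fold change (1.47) at a low level. The factor gene Atf3 was lower (-0.29), and the enzyme gene Gpt2 was higher (0.36). Enzymes of serine and proline synthesis were lower, with Phgdh at 213, 214 and 209 CPM at 5 μM, against 265, 274 and 273 CPM at 0 μM, Aldh18a1 at -0.21 and Psat1 at -0.19 on the log2 scale, and asparagine synthetase (Asns) was not called (0.00). The inhibitors of mTORC1 that belong to this response or to p53, Ddit4 (0.52) and Sesn2 (0.49), rose, and 8 of 16 PI3K and mTORC1 brakes were higher and 0 lower (5 without 5 μM replicate 1). The unfolded protein response of the endoplasmic reticulum did not share this direction. Of 20 genes 9 were lower, among them the chaperones Hspa5 (-0.12) and Hsp90b1 (-0.21), and 3 were higher, among them Dnajb9 (0.35).

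Many genes of mitosis and DNA replication were lower. Of 50 mitotic genes, 36 were lower and 0 higher, none past 1.5-fold (median -0.17). Plk1, the kinase of mitotic entry, had 83.4, 86.3 and 79.2 CPM at 5 μM, against 117, 114 and 114 CPM at 0 μM, and Ccnb1, the gene of cyclin B1, had 138, 132 and 132 CPM at 5 μM, against 175, 173 and 168 CPM at 0 μM. Aurka (-0.42), Pttg1 (-0.41) and Cenpe (-0.37) fell by similar amounts. Of 50 DNA replication genes, 27 were lower and 1 higher (median -0.11), led by thymidine kinase (Tk1) at 106, 105 and 103 CPM at 5 μM, against 129, 132 and 133 CPM at 0 μM and by the ribonucleotide reductase subunit Rrm2 (-0.27). Enzymes of nucleotide synthesis followed, with 15 of 22 lower and 1 higher, and Ppat, the first enzyme of the purine pathway, at -0.31. Of 48 tested replication-dependent histone genes, near copies of each other, 6 were lower, 5 of them past 1.5-fold, and 0 higher. That is 12.5% called, all of them lower, against 16.8% of all tested genes called lower and 33.1% called in either direction. Only 1 to 3 were called without 5 μM replicate 2, 5 μM replicate 3 or 0 μM replicate 3. The G1/S regulators were mixed, with 4 higher and 6 lower of 18. Cyclin E1 (Ccne1) was lower (-0.29) and the kinase gene Cdk6 higher (0.22). Myc, the growth regulator, was higher, at 140.4, 148 and 138 CPM at 5 μM, against 112, 106 and 107 CPM at 0 μM, and of 11 MYC network genes 6 were higher and 1 lower. Among genes of the MXD family, which oppose Myc, Mxd1 (0.52), Mxd4 (0.40) and Mxi1 (0.25) were higher and Mxd3 lower (-0.19, adjusted p = 0.041, but 0.11 with DESeq2 and 0.064 to 0.21 when any 1 library other than 0 μM replicate 2 was left out).

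Genes of mitochondrial respiration were lower as a broad, shallow shift. The respiratory chain passes electrons through complexes I to IV to oxygen, and ATP synthase uses the proton gradient they build. Of 75 nuclear-encoded subunits, all tested, 53 were lower and 0 higher (70.7%, against 16.8% of all tested genes), with a median log2 fold change of -0.16 and none past 1.5-fold. By complex, 20 of 36 subunits of complex I, 3 of 4 of complex II, 8 of 9 of complex III, 10 of 11 of complex IV and 12 of 15 of ATP synthase were lower. Ndufa9 of complex I had 95.2, 94.1 and 97.7 CPM at 5 μM, against 116, 117 and 112 CPM at 0 μM, and Atp5b, the catalytic beta subunit of ATP synthase, had 1524, 1469 and 1471 CPM at 5 μM, against 1759, 1738 and 1731 CPM at 0 μM. Neither overlapped, at 1.202-fold and 1.17-fold lower (adjusted p = 4.7e-05 and 2.5e-06). Complex II, succinate dehydrogenase, joins the tricarboxylic acid cycle to the chain. Its iron-sulfur subunit Sdhb had 109.7, 105 and 104 CPM at 5 μM, against 119, 123 and 117 CPM at 0 μM, and the membrane anchor Sdhd had 153, 149 and 146 CPM at 5 μM, against 168, 167 and 175 CPM at 0 μM. The other anchor, Sdhc, was called with overlapping groups (log2 fold change -0.12, adjusted p = 0.026, but 0.087 to 0.16 when replicate 2 or 3 of either concentration was left out), and the flavoprotein subunit Sdha was not called (-0.07, adjusted p = 0.078). The complex I count was 12 without 5 μM replicate 2 and 13 without 0 μM replicate 2 or 3. The complex III count was 5 when any 1 of those libraries was left out.

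**Figure D4:**
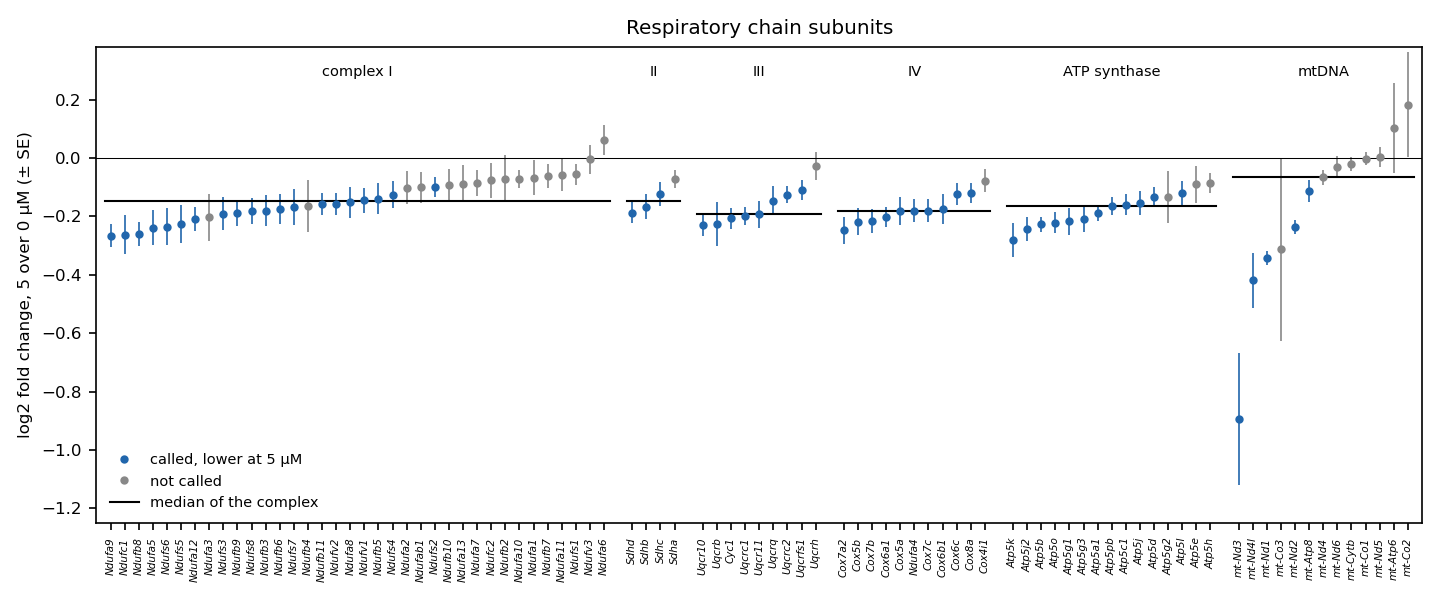
Log2 fold change at 5 over 0 μM (y axis, ± SE) of each respiratory subunit (x axis), sorted within its complex, with called genes in blue, others in grey and the median of each complex as a black line. Of the 75 nuclear-encoded subunits 53 are blue, the lowest at -0.28, while mt-Nd3 of the mitochondrial genome lies at -0.89 with a wide error.

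The mitochondrial genome itself encodes 13 subunits, of which 5 were lower and 0 higher (median -0.07). That is 38.5% called, all of them lower, against 16.8% of all tested genes called lower and 33.1% called in either direction. The counts were 6 lower and 2 higher with no filter, and 7 lower and 1 higher with edgeR on 6 libraries. mt-Nd1 had 2041, 2039 and 2011 CPM at 5 μM, against 2563, 2549.8 and 2609.7 CPM at 0 μM, and mt-Nd2 had 1106, 1107 and 1084 CPM at 5 μM, against 1299, 1281 and 1302 CPM at 0 μM. Both sets lay apart, at -0.34 and -0.24 on the log2 scale, while mt-Cytb had -0.02 and was not called (adjusted p = 0.53). mt-Nd3 had 23.7, 15.7 and 15.9 CPM at 5 μM, against 43.8, 23.8 and 34.8 CPM at 0 μM, so that 5 μM replicate 1 and 0 μM replicate 2 nearly met, and its call was lost with DESeq2 (adjusted p = 0.068). All mitochondrially encoded transcripts together took 2.53 to 2.56% of the counts at 5 μM, against 2.60 to 2.66% at 0 μM. Genes of the machinery that builds mitochondria had medians of -0.12 for its ribosome, -0.12 for import and -0.10 for assembly factors. Of 78 mitochondrial ribosomal proteins, 35 were lower and 1 higher (21 lower without 5 μM replicate 2 or 0 μM replicate 3), of 27 import genes 12 were lower and 0 higher, and of 41 assembly factors 10 were lower and 2 higher. Among assembly factors, Ecsit of complex I had 15.8, 15.5 and 16.6 CPM at 5 μM, against 20.6, 20.6 and 22.4 CPM at 0 μM, a 1.33-fold fall. The count of assembly factors was 4 lower without 5 μM replicate 2 and 5 with DESeq2, and the share called in either direction, 29.3%, was below the 33.1% of all tested genes.

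Of the 8 listed genes of mitochondrial metabolism chosen for RT-qPCR, 6 were lower in the counts at 5 μM. Etfb, which hands electrons from fatty acid oxidation to the chain, had 75.7, 71.9 and 68.99 CPM at 5 μM, against 92.5, 95.2 and 94.9 CPM at 0 μM (log2 fold change -0.38, adjusted p = 7.9e-07). Atp5k of ATP synthase, Cox18, an assembly factor of complex IV, Ndufc1 of complex I and Sdhb were lower, with log2 fold changes of -0.28, -0.27, -0.26 and -0.17. Aco1, the cytosolic aconitase, was the smallest of the 6 (-0.12, adjusted p = 0.025), and its call was lost with library totals as the scale (0.06) and without 5 μM replicate 1 (0.072), 5 μM replicate 2 (0.077), 0 μM replicate 2 (0.12) or 0 μM replicate 3 (0.08). Idh1 was scarce, at 1.72, 1.42 and 1.61 CPM at 5 μM, against 2.67, 2.34 and 2.03 CPM at 0 μM, and was not called in spite of groups that did not overlap (adjusted p = 0.052), though it passed with limma-voom (0.049), in the fit of 6 libraries (0.049) and under the stricter filter (0.032). Nubpl had 10.5, 7.73 and 7.67 CPM at 5 μM, against 9.96, 10.7 and 10.4 CPM at 0 μM, with 5 μM replicate 1 among the untreated cultures (adjusted p = 0.10, but 0.012 without that library).

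Other metabolic routes showed the same direction to different extents. Of 17 tricarboxylic acid cycle enzymes, 14 were lower and 0 higher (median -0.17). Idh3a (-0.27), Suclg1 (-0.26) and Fh1 (-0.24) fell most, and citrate synthase (Cs) had 267, 269 and 274 CPM at 5 μM, against 309, 302 and 308 CPM at 0 μM. Cholesterol synthesis and its SREBP2 targets had the lowest median of the metabolic lists, -0.28, with 20 of 25 lower and 0 higher. Hmgcs1, an early enzyme of the pathway, had 125, 128 and 129 CPM at 5 μM, against 179, 179 and 179.8 CPM at 0 μM. The sterol enzyme gene Msmo1 (-0.49) moved with it. Of 12 tested fatty acid synthesis genes 7 were lower and 2 higher, led by the desaturase Fads2 (-0.67) and the elongase Elovl6 (-0.44). In fatty acid oxidation 12 of 23 were lower and 1 higher (7 lower without 0 μM replicate 3). Eci1, an isomerase for unsaturated fatty acids, had 5.34, 4.92 and 4.59 CPM at 5 μM, against 9.35, 11.2 and 8.96 CPM at 0 μM, the one gene of that list to exceed 1.5-fold. Of 20 genes for glycolysis and lactate 11 were lower and 2 higher. Pfkm (-0.32) and the lactate transporter Slc16a1 (-0.31) fell most, and Ldha had 2296, 2266 and 2291 CPM at 5 μM, against 2594, 2627 and 2611 CPM at 0 μM.

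**Figure D5:**
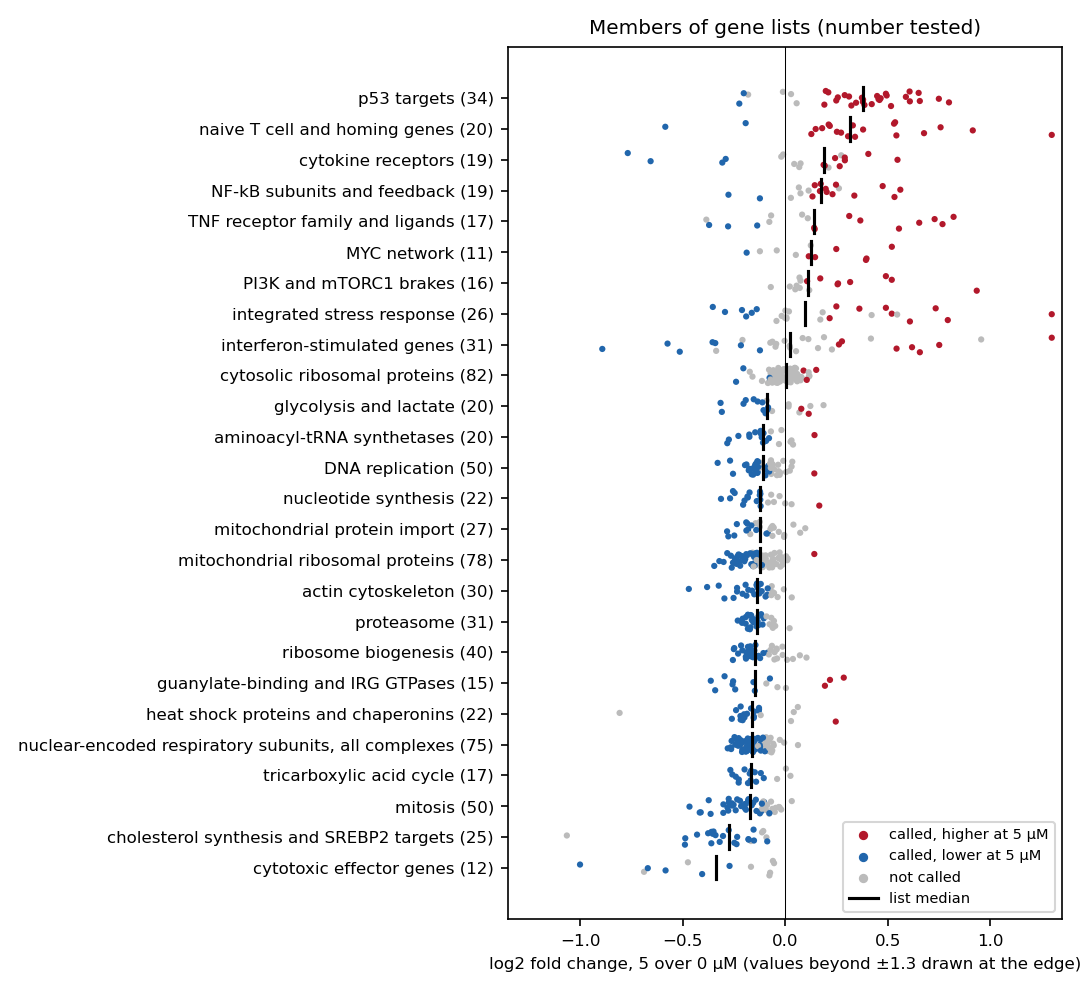
Log2 fold change at 5 over 0 μM (x axis) of the tested members of 26 gene lists (rows, number tested in brackets), with called members in red or blue, others in grey and each list's median as a black bar. The median is 0.38 for p53 targets at the top, -0.16 for nuclear respiratory subunits and -0.34 for cytotoxic genes at the bottom, and 3 members beyond 1.3 are drawn at the edge.

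Growth and protein turnover genes were lower in the same shallow way. Of 40 ribosome biogenesis genes 26 were lower and 0 higher (median -0.15), with Nop56 at -0.26 and Nop2 at -0.25. The cytosolic ribosomal proteins showed no common direction, with 3 higher and 3 lower of 82 and a median of 0.01. These counts moved with the fit, to 11 higher and 2 lower with library totals as the scale, 15 and 9 with DESeq2 on 6 libraries, 12 and 9 with edgeR on 6 libraries and 10 and 7 of 86 with no filter. Of 31 proteasome subunits 23 were lower and 0 higher, among them Psmb3 (-0.23) and Psmb6 (-0.21). Of 22 heat shock proteins and chaperonins 16 were lower, with the mitochondrial chaperonin Hspd1 at -0.26. Of 20 aminoacyl-tRNA synthetases 13 were lower and 1 higher. Genes of the actin cytoskeleton were lower. Actg1, the gamma actin gene, had 1737, 1697 and 1707 CPM at 5 μM, against 2382, 2383 and 2358 CPM at 0 μM, and Actb, the beta actin gene, had 3962, 4011 and 3881 CPM at 5 μM, against 4899, 4825 and 4836 CPM at 0 μM. Both were apart between the groups, and 23 of 30 actin genes were lower and 0 higher, Tpm4 (-0.38) and Vcl (-0.32) included. Of 17 galectin, S100 and annexin genes with their like, 8 were lower and 0 higher (4 without 5 μM replicate 2, 3 without 0 μM replicate 2 and 5 without 0 μM replicate 3). The 14 amino acid transporters had no common direction, with 3 higher and 2 lower (35.7% called, near the 33.1% of all tested genes). Lgals1, a galectin gene that rises with T cell activation, had 215, 211 and 203 CPM at 5 μM, against 325, 328 and 329 CPM at 0 μM (log2 fold change -0.64, adjusted p = 1.6e-10).

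Targets of the aryl hydrocarbon receptor (AhR), a sensor of flavonoids, tryptophan products and dioxins, were lower or not called. Cyp1a1, the classical target, had 1.05, 1.06 and 1.31 CPM at 5 μM, against 3.82, 3.88 and 4.23 CPM at 0 μM, a 3.498-fold fall without overlap (adjusted p = 2.6e-06). The receptor's repressor gene Ahrr, itself induced by AhR, had 1.002, 0.569 and 0.605 CPM at 5 μM, against 2.46, 2.14 and 2.16 CPM at 0 μM, and Nqo1, shared with the NRF2 pathway, had 4.77, 4.03 and 4.39 CPM at 5 μM, against 6.34, 5.67 and 6.38 CPM at 0 μM. The other 3 genes tested, with Tiparp at -0.12 and Ahr at 0.54, were not called. Of 22 targets of NRF2, the factor that answers oxidants, 10 were lower and 0 higher. Srxn1, which repairs peroxiredoxins, had 6.77, 7.197 and 6.61 CPM at 5 μM, against 11.9, 9.51 and 12.3 CPM at 0 μM, and thioredoxin (Txn1) fell less (-0.27). Hmox1, the heme oxygenase gene, had 8.78, 8.905 and 8.62 CPM at 5 μM, against 8.55, 7.47 and 7.78 CPM at 0 μM and was not called (adjusted p = 0.33).

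Interferon-related genes were divided. Of 31 interferon-stimulated genes tested, 7 were higher and 7 lower. Ifitm3, a membrane protein that blocks virus entry, had 17.3, 17.7 and 19.6 CPM at 5 μM, against 33.7, 34.4 and 33.1 CPM at 0 μM, whereas Isg15, a ubiquitin-like modifier, had 6.15, 6.099 and 6.25 CPM at 5 μM, against 3.82, 4.68 and 3.296 CPM at 0 μM. The 2 genes thus moved apart, at -0.89 and 0.66 on the log2 scale. Of 15 guanylate-binding and immunity-related GTPases 9 were lower and 3 higher, with Gbp5 (0.29) against most. In antigen presentation by class I, 7 of 15 genes were higher, H2-K1 (0.15) and H2-D1 (0.13) among them, and the 3 lower ones were the immunoproteasome subunits Psmb10 (-0.45), Psmb8 (-0.24) and Psmb9 (-0.14). Of 21 potassium and calcium channel and pump genes, 3 were higher and 6 lower (42.9% called, against 33.1% of all tested genes). Orai2, a calcium channel subunit gene, had 93.7, 97.7 and 96.6 CPM at 5 μM, against 70.9, 68.8 and 68.1 CPM at 0 μM, and Atp2b4, a calcium pump gene of the plasma membrane, had 14.5, 16.96 and 18.1 CPM at 5 μM, against 21.9, 23.4 and 24.1 CPM at 0 μM.

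The 10 μM cultures were compared with the same 0 μM libraries, so both comparisons share their controls and only the values are set side by side. For Nr4a2 the log2 fold change was -1.49 at 5 μM and -2.08 at 10 μM. It was -1.81 and -2.50 for Dsp, 1.23 and 1.69 for Tnnt2 and 0.80 and 1.17 for Cish at these doses. Sik1 had -0.94 and -0.98, and Ccr4 0.76 and 0.66. Some falls at 5 μM did not hold at 10 μM. Ecsit had -0.42 and -0.06 and Atf3 -0.29 and -0.04, and neither was called at 10 μM (adjusted p = 0.48 and 0.61). Bhlhe40 had -0.14 and 0.15 and was called in opposite directions (adjusted p = 1.7e-04 at 10 μM). The list medians were 0.38 at 5 μM and 0.48 at 10 μM for p53 targets, 0.32 and 0.42 for naive and homing genes, and -0.16 and -0.18 for nuclear respiratory subunits.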

How the data were processed

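RNA-seq was done on CD4+ T cells at 0, 5 and 10 μM acacetin. The authors deposited expected counts (estimated counts of reads per gene) for 25757 entries, and these were rounded, since 24.1% of the values were not whole. The processing notes name GRCm39. The methods name Hisat2 beside quality checks, Stringtie beside trimming and DESeq2 for testing. How the counting was done, with which annotation and strand, is not given in the sources used here, so reads of antisense or overlapping genes and of close paralogs cannot be told apart. Of 964 entries sharing 70 symbols, the one with the most counts was kept per symbol. No entry lacked a name, and all 9 columns matched the labels.

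Genes passing edgeR's filterByExpr (12175) were scaled by TMM and compared by quasi-likelihood testing in edgeR 4.0.16 (R 4.3.3), in a single fit of the 9 libraries, for 5 against 0 μM, with Benjamini-Hochberg adjustment over all tested genes. CPM are TMM-scaled. Called means an adjusted p under 0.05. A minimum of 10 counts in all 9 libraries was met by 11314 genes. Each replicate was counted as a sample, as labelled. Replicates of a group differed by more than counting noise, but repeat cultures of the same cells can differ so too. That difference therefore does not show that the replicates came from separate animals.

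Members and the 62 lists were chosen with earlier results of these data known. Genes named are the 12 highest and 12 lowest fold changes over 1.5-fold whose mean log2 CPM reached 3 and whose groups did not overlap, up to 4 called members per list with the smallest adjusted p, called members against their list's direction, and the RT-qPCR targets. Other members were named after their values were seen, to show the range of a list. Lists are described by counts and medians, with no test of a list. Alternatives were RLE factors, library totals, no filter, at least 10 counts in each library, DESeq2 1.42.0, limma 3.58.1 voom, a fit of 6 libraries, a replicate block, every entry kept, a test against 1.5-fold itself and leaving out each library. Promoter windows came from RefSeq on GRCm38.p6, an assembly before that of the counts, and were joined by symbol.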

Additional observations from a re-analysis of the deposited data

How the results depend on the processing

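The count of 4029 called genes was 3143 to 3480 when single libraries were left out, and the counts over 1.5-fold were 171 to 202 higher and 170 to 195 lower. DESeq2 called 3445 genes on 9 libraries and 3620 on 6. No called gene changed its sign under any of the 16 refits. Under edgeR's glmTreat with 1.5 as the fold to exceed, 15 genes were higher and 28 lower, since it asks for a fold beyond the threshold and not for any difference. Any pairing of the libraries by replicate number was weak. Between concentrations, deviations from the group means correlated at -0.03 to 0.087 for same-numbered libraries and at -0.089 to 0.042 for differently numbered ones. The fit with a replicate block called 3939 genes, 196 higher and 210 lower over 1.5-fold. Of 312 called genes under the naming rule, 287 stayed called without 0 μM replicate 3, the lowest number among these refits. Depth limits the scarce genes: 68 of the 409 genes over 1.5-fold had a mean under 1 CPM (log2 CPM under 0), where a few counts decide a fold change.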

Other observations

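Outside the listed pathways, genes chosen after their values were seen gave 3 further groups, each described gene by gene. Of the circadian clock genes looked at, some were higher at 5 μM and most were not called. Nr1d2, the gene of the clock repressor REV-ERBβ, had 23.4, 23.99 and 23.9 CPM at 5 μM, against 15.5, 14.8 and 16.1 CPM at 0 μM. Ciart had 10.4, 9.27 and 8.42 CPM at 5 μM, against 5.99, 6.27 and 5.87 CPM at 0 μM, and the PAR bZIP genes Dbp and Tef had log2 fold changes of 0.60 and 0.34 (adjusted p = 0.0051 and 6.0e-05). The 4 genes did not overlap between the groups. Bhlhe40, a clock repressor gene that is also on the T helper list, was lower (-0.14, adjusted p = 7.0e-04). Not called were Arntl at 0.03, Clock at 0.09, Per1 at -0.07, Per2 at 0.01, Per3 at -0.04, Cry1 at 0.04, Cry2 at 0.01 and Nr1d1, the close relative of Nr1d2, at -0.08 on the log2 scale.

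Of the retinoid genes looked at, 3 were lower, 1 was higher and 4 were not called. Crabp2, a carrier of retinoic acid, had 2.15, 2.52 and 2.87 CPM at 5 μM, against 7.997, 5.23 and 8.03 CPM at 0 μM, and Stra6, the receptor for retinol uptake, had 0.668, 1.22 and 0.756 CPM at 5 μM, against 2.41, 1.84 and 2.16 CPM at 0 μM. Dhrs9, a retinol dehydrogenase gene, fell (-0.80, adjusted p = 0.0062). Rdh5, a retinol dehydrogenase gene as well, was higher (0.88, adjusted p = 0.026), and its call was lost without 5 μM replicate 2 (0.077), 5 μM replicate 3 (0.056), 0 μM replicate 1 (0.11) or 0 μM replicate 3 (0.14). The receptor genes Rara (0.09) and Rarg (0.23) and the enzyme genes Rdh10 (-0.19) and Dhrs3 (-0.06) were not called. The long noncoding RNAs Neat1 and Malat1, both retained in the nucleus, were higher, at 96.7, 94.8 and 94.2 CPM at 5 μM, against 71.5, 73.7 and 66.7 CPM at 0 μM for Neat1 and 501, 459 and 504 CPM at 5 μM, against 369, 427 and 387 CPM at 0 μM for Malat1. Rpph1, the RNA of ribonuclease P, which has no poly(A) tail, was lower, at 9.06, 7.48 and 7.01 CPM at 5 μM, against 11.7, 12.5 and 13.5 CPM at 0 μM. Rmrp, of the same kind, had 0.191, 0.203 and 0.353 CPM at 5 μM and 0.302, 1.84 and 1.99 CPM at 0 μM, so its fall rested on 0 μM replicates 2 and 3, the 2 of these 6 libraries with the most 18S ribosomal RNA.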
